A study of Mus musculus with 6 samples.

Results

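The genes described here encode the pore-forming and auxiliary subunits of voltage-gated calcium and sodium channels, the HCN channels that open on hyperpolarization, and 4 families of chloride channels and chloride transport proteins (CLC, CLIC, CLCA and anoctamin). They were chosen by symbol, as every gene of the BWA mRNA table whose name starts with *Cacna*, *Cacnb*, *Cacng*, *Scn*, *Hcn*, *Clcn*, *Clic*, *Clca* or *Ano* and a matching suffix, without the photoreceptor synapse genes *Cacna1f*, *Cacna2d4* and *Cacnb2*. The rule gave 53 genes with 77 transcripts, of 12145 genes with 15142 transcripts in the table. The rule used no measured value, but the table holds only transcripts with an FPKM of 1 or more in 1 library or more. FPKM counts the fragments of a transcript per unit of its length and per unit of library size. All 77 members lie in it by definition, and 1 of them, a *Cacna1s* transcript, entered through the WT libraries alone.

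RNA-seq was performed on whole retinas of C57BL/6 mice (C57Bl/6J in the methods of the study) at postnatal day 21 (P21), with 3 *Nrl-/-* and 3 WT libraries and 1 mouse for each library. The p-values thus rest on the spread between animals within the genotypes. The fit draws the spread of each transcript towards a trend over all transcripts. The *Nrl-/-* mice carry a loss-of-function mutation, in every cell, of the gene for a leucine zipper factor needed by precursor cells to become rods. In its absence these cells become cone-like photoreceptors, so that the kind of photoreceptor differs from WT. The targeted gene, *Nrl* (NM_001136074), had an FPKM of 0.919 ± 0.0399 in *Nrl-/-* retina and 545 ± 41.7 in WT retina (SD, n = 3 each).

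Voltage-gated calcium channels couple depolarization to transmitter release and to calcium signaling. Their alpha1 subunit forms the pore, and the alpha2delta and beta subunits bring it to the membrane and tune its gating. Sodium channels carry the action potentials of ganglion and amacrine cells, HCN channels shape the light response of photoreceptors and bipolar cells, and chloride channels and exchangers set membrane potential, cell volume and the acidity of intracellular vesicles.

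Whole-retina values mix cell types, and fewer cells of a type and less RNA per cell cannot be told apart in them. All 6 rod markers were lower in *Nrl-/-* retina, with a summed FPKM of 25.8 to 26.4 in *Nrl-/-* and 5060 to 5621 in WT libraries. All 8 cone markers were higher, with sums of 6835 to 7002 in *Nrl-/-* and 497 to 603 in WT libraries. Of 5 amacrine markers measured 0 changed, and of 11 ganglion cell markers 2 rose and 1 fell. Of 9 bipolar markers 5 rose and 1 fell. Of 7 Müller glia markers 2 rose, of 3 horizontal cell markers 1 rose and of 5 microglia markers 2 rose, and 0 of these fell. Of 6 endothelium markers 1 fell and 0 rose. Among all genes 28.3% were higher and 10.2% lower. WT replicate 1 stood apart for these channels. It held the highest WT value of 53 of the 77 member transcripts (68.8%), against 38.2% of all transcripts, and the median SD of the members on the log2 scale was 0.0503 in *Nrl-/-* and 0.131 in WT libraries, against 0.0608 and 0.107 over all transcripts. WT replicate 2 was the only library with abundant *Xist* and without Y-linked transcripts, so its sex differed from that of the other 5 animals. Of the members only *Clcn5* is X-linked.

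Most of the channel genes were expressed at similar levels in both genotypes, as were most of all genes, and a few changed strongly. By the highest transcript of each gene, 71.7% of the member genes and 66.9% of all genes changed by less than 1.2-fold in log2(FPKM + 1). Of the 77 transcripts 15 were higher in *Nrl-/-* retina (19.5%), where 26.7% of all transcripts were higher, and 5 were lower (6.49%), where 10.1% of all were lower (limma on log2(FPKM + 1), called at a Benjamini-Hochberg adjusted p under 0.05 over all 15142 transcripts). In either direction 20 of the 77 were called, against 36.8% of all transcripts. Among changes of at least 1.5-fold, 6 were higher and 1 was lower, against a background of 5.71% higher and 3.59% lower. By gene, with the transcript of the highest FPKM, 11 of 53 were higher, 4 were lower and 38 did neither, where 28.3% of all genes were higher and 10.2% lower. The median log2 fold change was 0.02 over the member transcripts and 0.08 over all transcripts, and the median absolute change was 0.11 and 0.17. Without WT replicate 1 the median log2 fold change of the members was 0.09, as was that of all transcripts, without WT replicate 2 it was 0.0050, and without WT replicate 3 it turned to -0.02. All *Nrl-/-* libraries lay above all WT libraries for 21 member transcripts (27.3%, background 34.9%) and below them for 11 (14.3%, background 14.2%). Log2 fold changes are differences of log2(FPKM + 1), *Nrl-/-* minus WT, which are smaller than those of the FPKM itself for transcripts of low FPKM.

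The direction of small changes depended on the scaling of the libraries. The deposited values place the median of all transcripts 0.08 higher in *Nrl-/-* retina, and scalings that remove this shift gave a share of higher among all called transcripts of 52.0% to 52.3%, against 72.7% as deposited. Among the members, median-of-ratios and upper-quartile scaling each gave 11 higher and 12 lower, and quantile normalization gave 11 and 11. With median-of-ratios scaling that was 14.3% of members higher and 15.6% lower, against 16.3% and 15.0% of all transcripts, and with quantile normalization 14.3% in each direction, against 16.2% and 14.8%, so that the members were close to the background in both. The calls for *Ano10*, *Cacna2d3*, *Cacnb1* and *Hcn2* were lost under all 3 scalings, and *Cacng5*, *Cacng7*, *Clcn5*, *Clcn6*, *Scn1a* and *Scn4b* were then called lower. The changes of at least 1.5-fold kept their direction and their call throughout.

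**Figure D1:**
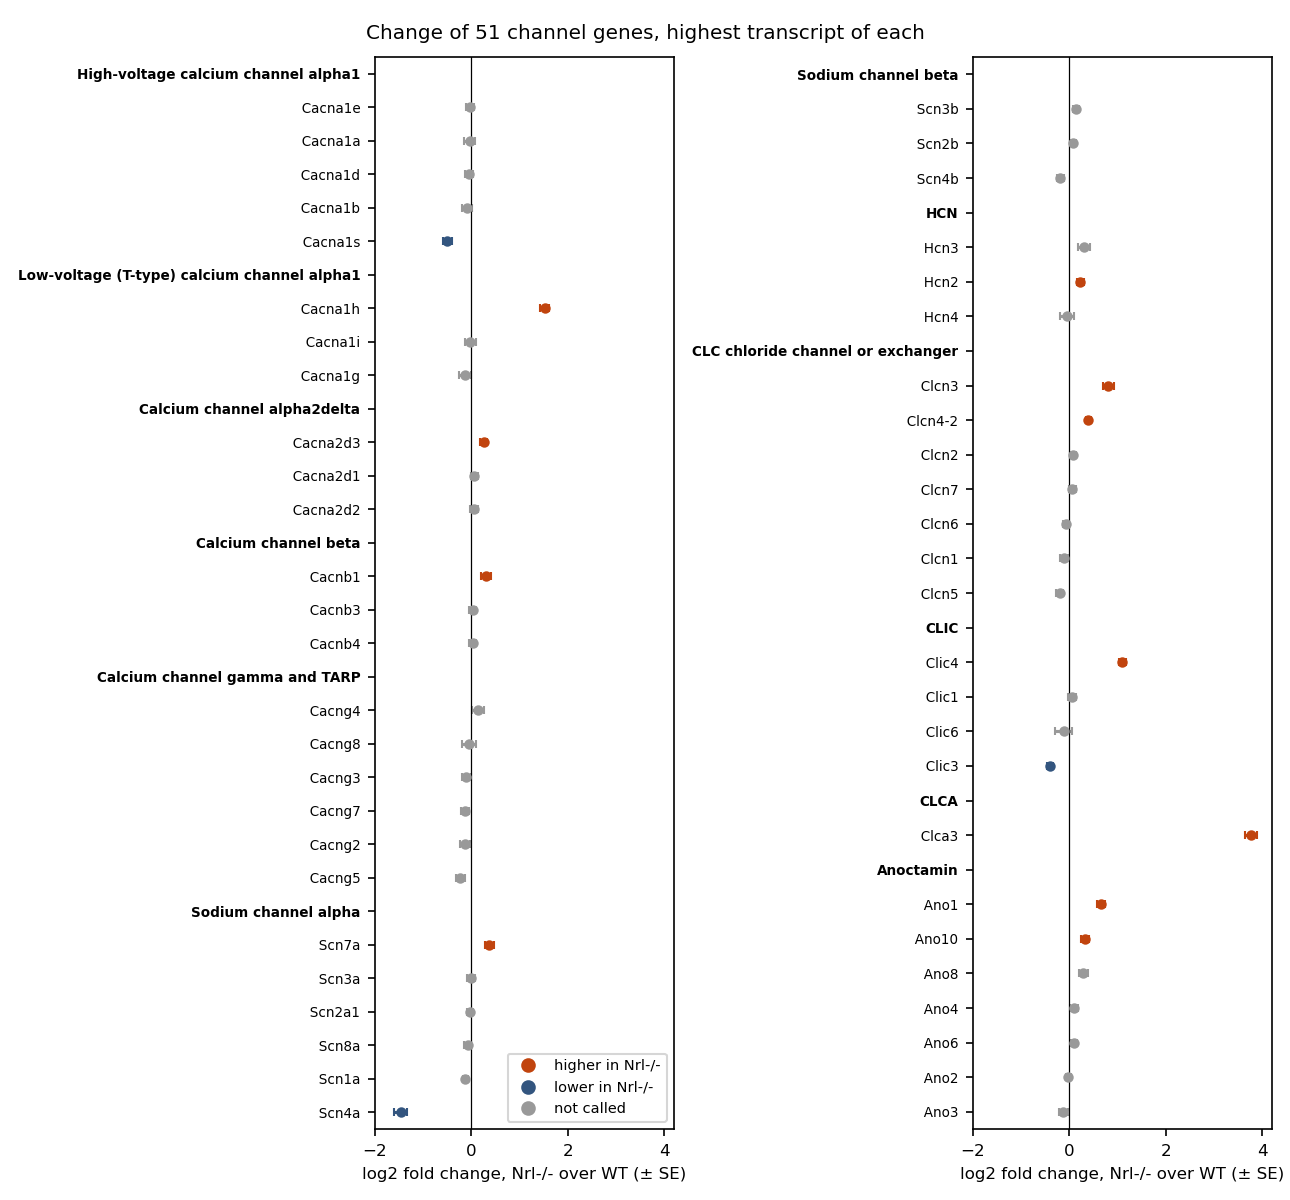
Log2 fold change of log2(FPKM + 1), *Nrl-/-* over WT, for the highest transcript of 51 genes, grouped by family, with bars for the standard error of the limma fit. Orange points mark genes higher and blue points genes lower in *Nrl-/-* retina at an adjusted p under 0.05. *Clca3* stands at 3.77, *Cacna1h* at 1.52, *Clic4* at 1.10 and *Scn4a* at -1.47, and most other genes lie close to 0.

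The member with the largest change was *Clca3* (NM_017474), which rose 19.1-fold in FPKM. Its product is a secreted protein of the CLCA family, abundant in mucus-producing goblet cells, that modulates calcium-activated chloride currents in other cells and forms no channel itself. The gene is on chromosome 3 (minus strand, 144667501 to 144695740, build NCBIM37, which is mm9), and the current RefSeq table names this transcript *Clca1*. Its FPKM was 41.8, 39.5 and 55.1 in the *Nrl-/-* libraries and 2.53, 2.56 and 2.05 in the WT libraries. On the log2 scale it rose by 3.77 (standard error 0.12, limma adjusted p = 3.2e-08), and the lowest *Nrl-/-* library was far above every WT library.

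RNA of the T-type calcium channels, which open close to the resting potential, was more abundant in *Nrl-/-* retina through 1 of their 3 genes. *Cacna1h* (chromosome 17, minus strand, 25511230 to 25570728, NCBIM37) had 2 transcripts that rose alike. NM_001163691 had an FPKM of 26.1, 25.5 and 25.2 in *Nrl-/-* libraries and 9.85, 7.34 and 7.75 in WT libraries, and NM_021415 had 23.6, 23.1 and 22.9 in *Nrl-/-* and 8.78, 6.41 and 6.83 in WT libraries. The log2 fold changes were 1.52 (standard error 0.09, limma adjusted p = 2.5e-06) and 1.55 (standard error 0.10, adjusted p = 2.8e-06). The groups did not overlap, and WT replicate 1 was the highest WT library for both. The remaining T-type genes did not pass the test. *Cacna1i* had an FPKM of 4.06 ± 0.236 in *Nrl-/-* and 4.17 ± 0.903 in WT retina, and the 4 *Cacna1g* transcripts had log2 fold changes of -0.14 to -0.01. The summed FPKM of the 3 genes was 61.6 ± 1.42 in *Nrl-/-* and 29.1 ± 5.33 in WT retina, and *Cacna1h* made up 79.2% ± 0.730 of it in *Nrl-/-* and 53.9% ± 1.52 in WT retina (SD, n = 3 each). In WT retina *Cacna1g* held 31.9% ± 0.652 of the sum, against 14.3% ± 0.474 in *Nrl-/-* retina, although its own level was not called changed.

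Among the members, the high-voltage alpha1 genes of neurons were low and did not pass the test in either direction. *Cacna1f*, left out by the rule, was not compared with them. *Cacna1a*, the pore of the P/Q-type channel, had an FPKM of 3.72, 4.03 and 3.63 in *Nrl-/-* and 4.86, 3.56 and 3.44 in WT libraries, which overlap (log2 fold change -0.04, standard error 0.11). The 2 transcripts of the N-type gene *Cacna1b* had log2 fold changes of -0.09 and -0.07, those of the L-type gene *Cacna1d* -0.07 and -0.05, and the R-type gene *Cacna1e* -0.03. *Cacna1c*, the pore of the L-type channel of heart and smooth muscle, was not tested.

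The exception was *Cacna1s*, the L-type pore of skeletal muscle, where it serves as the voltage sensor of contraction. NM_001081023 had an FPKM of 0.815, 0.778 and 0.919 in *Nrl-/-* libraries and 1.55, 1.48 and 1.75 in WT libraries (log2 fold change -0.50, standard error 0.09, limma adjusted p = 0.0019), and is the transcript that entered the table through the WT libraries alone. NM_014193 had 0.986, 0.828 and 1.00 in *Nrl-/-* and 1.17, 1.53 and 1.57 in WT libraries (log2 fold change -0.32, adjusted p = 0.03). No *Nrl-/-* library reached the lowest WT library for either transcript. NM_001081023 passed the minimum of the table only where it was high, so that its difference does not stand as support. The call for NM_014193 was lost without any single library other than WT replicate 1, with adjusted p-values of 0.07, 0.11 and 0.054 without *Nrl-/-* replicates 1, 2 and 3 and of 0.087 and 0.072 without WT replicates 2 and 3.

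Among sodium channel alpha subunits the skeletal muscle gene fell, and the neuronal genes did not pass the test with the deposited scaling. *Scn4a* (NM_133199) (chromosome 11, minus strand, 106179906 to 106214602, NCBIM37) carries the action potential of skeletal muscle. It had an FPKM of 1.41, 1.45 and 1.14 in *Nrl-/-* libraries and 4.86, 4.70 and 7.0 in WT libraries. Every *Nrl-/-* library was below every WT library (log2 fold change -1.47, standard error 0.13, limma adjusted p = 3.0e-05), or 4.14-fold less FPKM in *Nrl-/-* retina. Markers of skeletal muscle itself were near the floor of the table. Of 11 such markers 3 were measured, 0 changed, and their summed FPKM was 3.42 to 4.81 in *Nrl-/-* and 4.23 to 5.71 in WT libraries. *Clcn1*, the chloride channel of skeletal muscle, had an FPKM of 1.116 ± 0.113 in *Nrl-/-* and 1.28 ± 0.0484 in WT retina and was not called (log2 fold change -0.11, adjusted p = 0.36).

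The promoters of *Scn4a* and *Cacna1s* are shown because these were the muscle-type members called lower, with the limits given above for *Cacna1s*. Those of *Clic4* and *Scn7a* are examples of genes that rose, picked because their windows hold the same short motifs. Each window runs 250 bases before to 50 after the gene's start, in the gene's own direction, from RefSeq on build GRCm38.p6. Capitals mark TAATCC, the core recognized by the photoreceptor homeodomain factor CRX, and TGCTGA, the half-site of the MAF family to which NRL belongs, either of them on either strand, so that TCAGCA is TGCTGA read on the other strand. The windows are chr11:106349341-106349640 (minus strand) for *Scn4a*, chr1:136052561-136052860 (plus strand) for *Cacna1s*, chr4:135272711-135273010 (minus strand) for *Clic4* and chr2:66784861-66785160 (minus strand) for *Scn7a*.
Scn4a: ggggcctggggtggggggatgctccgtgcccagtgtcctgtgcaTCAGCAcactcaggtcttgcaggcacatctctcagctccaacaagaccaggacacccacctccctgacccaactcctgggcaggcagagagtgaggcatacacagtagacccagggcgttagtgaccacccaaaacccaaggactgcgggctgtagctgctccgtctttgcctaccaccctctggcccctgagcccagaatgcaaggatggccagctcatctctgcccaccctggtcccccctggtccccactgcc
Cacna1s: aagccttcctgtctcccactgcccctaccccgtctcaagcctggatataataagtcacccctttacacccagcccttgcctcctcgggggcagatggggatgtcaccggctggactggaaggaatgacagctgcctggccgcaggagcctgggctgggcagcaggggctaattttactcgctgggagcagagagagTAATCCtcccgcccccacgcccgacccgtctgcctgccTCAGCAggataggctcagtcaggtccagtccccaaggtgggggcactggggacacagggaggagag
Clic4: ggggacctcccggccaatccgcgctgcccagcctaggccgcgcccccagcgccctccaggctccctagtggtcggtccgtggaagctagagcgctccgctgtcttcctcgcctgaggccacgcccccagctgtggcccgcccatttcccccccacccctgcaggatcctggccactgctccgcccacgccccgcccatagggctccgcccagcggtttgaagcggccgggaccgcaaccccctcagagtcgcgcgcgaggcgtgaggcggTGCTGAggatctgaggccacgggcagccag
Scn7a: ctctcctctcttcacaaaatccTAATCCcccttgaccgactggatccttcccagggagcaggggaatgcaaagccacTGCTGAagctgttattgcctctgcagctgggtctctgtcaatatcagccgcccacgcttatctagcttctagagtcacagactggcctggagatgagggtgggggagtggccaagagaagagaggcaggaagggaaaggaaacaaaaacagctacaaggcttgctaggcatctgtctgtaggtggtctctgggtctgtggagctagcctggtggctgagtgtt

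*Scn4a* had TGCTGA on the opposite strand 206 bases before the start, *Cacna1s* had TAATCC 54 and TGCTGA 16 bases before it, *Clic4* had TGCTGA 20 bases after it, and *Scn7a* had TAATCC 228 and TGCTGA 173 bases before it. *Cacnb1*, also called higher, had TGCTGA 36 bases before the start in a window not shown, and its other window had no match. Of 12 windows of genes called higher, 3 held TGCTGA and 1 held TAATCC. Of 3 windows of genes called lower, 2 held TGCTGA and 1 held TAATCC, and that of *Clic3* held neither. These letters were about as frequent in the 55 windows found for 40 of the 53 genes as in all 32851 windows of the table. TAATCC was in 9.09% of member windows and 7.06% of all, TGCTGA in 21.8% and 19.5%, AGGTCA (bound by nuclear receptors of the ROR family) in 12.7% and 16.3%, and the E-box CANNTG in 70.9% and 72.3%, each searched on both strands. A match describes the letters of a window and is not a binding site. The median GC content was 62.0% in the member windows and 52.7% in all.

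*Scn7a*, which encodes a sodium-sensing relative of the sodium channels, rose by a smaller amount. Its FPKM was 2.34, 2.48 and 2.53 in *Nrl-/-* and 1.40, 1.95 and 1.71 in WT libraries, without overlap (log2 fold change 0.37, standard error 0.09, limma adjusted p = 0.013). The call held in 15 of 16 alternatives and missed the threshold in an ordinary linear model (adjusted p = 0.055).

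*Scn1a*, which had the highest single transcript of the brain-type pores, had an FPKM of 10.5, 10.8 and 9.93 in *Nrl-/-* and 11.6, 10.9 and 11.8 in WT libraries (log2 fold change -0.12, standard error 0.06, adjusted p = 0.15). *Scn2a1*, *Scn3a* and the 2 transcripts of *Scn8a*, the main pore of mature axon initial segments, had log2 fold changes of -0.08 to 0.04. The summed FPKM of *Scn8a* by BWA was 11.9 ± 0.168 in *Nrl-/-* and 12.2 ± 1.21 in WT retina, above that of *Scn1a* (10.4 ± 0.438 and 11.4 ± 0.485). This order depended on the alignment. The authors' pooled TopHat sums were 12.3 in *Nrl-/-* and 13.1 in WT retina for *Scn8a*, 12.5 and 14.0 for *Scn1a*, and 15.6 and 16.0 for *Scn2a1*. Over all 6 alpha genes, the summed FPKM by BWA was 36.6 ± 0.986 in *Nrl-/-* and 41.5 ± 2.09 in WT retina, and *Scn4a* held 3.63% ± 0.370 of it in *Nrl-/-* and 13.3% ± 2.67 in WT retina (SD, n = 3 each).

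Of the beta subunits of sodium channels, adhesion proteins that adjust gating, *Scn2b*, the 3 transcripts of *Scn3b* and *Scn4b* had log2 fold changes between -0.19 and 0.20, none of them called. For the *Scn3b* transcripts NM_178227 (log2 fold change 0.20, limma adjusted p = 0.054) and NM_001083917 (0.13, adjusted p = 0.17) all *Nrl-/-* libraries nevertheless lay above all WT libraries. For *Scn4b* (-0.19, adjusted p = 0.099) all *Nrl-/-* libraries lay below them.

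The auxiliary calcium channel subunits among the members changed little. *Cacna2d4* and *Cacnb2*, left out by the rule, were not compared with them. *Cacna2d3*, the highest alpha2delta gene of the members, had an FPKM of 13.3, 13.5 and 13.1 in *Nrl-/-* and 9.78, 11.1 and 12.3 in WT libraries (log2 fold change 0.25, standard error 0.08, limma adjusted p = 0.031). The groups did not overlap, but the call was lost when any library except WT replicate 3 was left out, with adjusted p-values of 0.09, 0.098 and 0.072 without *Nrl-/-* replicates 1, 2 and 3 and of 0.053 and 0.066 without WT replicates 1 and 2. The 5 transcripts of *Cacna2d1* (log2 fold changes 0.06 to 0.14) and the 5 of *Cacna2d2* (0.02 to 0.06) were not called. Transcripts of one gene share most of their exons, and their values are not independent.

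Of the beta subunits among the members, *Cacnb3* was the highest, with an FPKM for NM_001044741 of 9.93, 9.63 and 9.27 in *Nrl-/-* and 10.2, 8.51 and 9.56 in WT libraries. Its other transcript and both of *Cacnb4* also had log2 fold changes within 0.05 of 0. *Cacnb1*, the subunit that pairs with the skeletal muscle pore and is also present in brain, had 3.50, 4.28 and 4.06 in *Nrl-/-* and 3.56, 2.86 and 2.61 in WT libraries (log2 fold change 0.31, standard error 0.10, limma adjusted p = 0.044). *Nrl-/-* replicate 1 and WT replicate 1 overlapped, and the call was lost without *Nrl-/-* replicate 2 (adjusted p = 0.15), *Nrl-/-* replicate 3 (0.12), WT replicate 2 (0.11) or WT replicate 3 (0.11).

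The genes named as calcium channel gamma subunits mostly encode TARPs, which carry AMPA glutamate receptors to the synapse, and 0 of their 7 transcripts were called. *Cacng7* had the highest single transcript of the 53 genes by the mean of all 6 libraries, with an FPKM of 40.9, 39.8 and 41.2 in *Nrl-/-* and 51.0, 41.5 and 42.1 in WT libraries. WT replicate 1 stood above the other libraries, and the gene was not called (log2 fold change -0.13, standard error 0.08, adjusted p = 0.22). Summed over its transcripts *Clcn3* was higher, at 80.4 in *Nrl-/-* and 49.2 in WT retina. *Cacng3* had 16.4 ± 2.05 in *Nrl-/-* and 17.7 ± 1.46 in WT retina, *Cacng4* had 12.9 ± 1.84 and 11.6 ± 1.83, and *Cacng2* had 3.36 ± 0.385 and 3.80 ± 0.555. The 2 *Cacng5* transcripts had log2 fold changes of -0.21 and -0.23, and *Cacng8*, the lowest member gene, had 0.828 ± 0.349 in *Nrl-/-* and 0.887 ± 0.212 in WT retina.

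Of the HCN channels, which set pacemaker currents and integrate synaptic input, *Hcn2* rose by a small amount. It had an FPKM of 5.82, 6.01 and 5.54 in *Nrl-/-* and 5.36, 4.62 and 4.50 in WT libraries (log2 fold change 0.22, standard error 0.08, adjusted p = 0.045), and *Hcn3* had 8.25, 7.69 and 7.34 in *Nrl-/-* and 7.28, 6.67 and 4.70 in WT libraries (log2 fold change 0.30, adjusted p = 0.098). All *Nrl-/-* libraries were above all WT libraries for both genes, of which *Hcn2* was called and *Hcn3* was not. The call of *Hcn2* was lost when any library except WT replicate 1 was left out (adjusted p = 0.13, 0.16 and 0.072 without *Nrl-/-* replicates 1, 2 and 3, and 0.12 and 0.097 without WT replicates 2 and 3), and *Hcn3* was called without WT replicate 1 (adjusted p = 0.039). *Hcn4* overlapped between genotypes (log2 fold change -0.05).

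**Figure D2:**
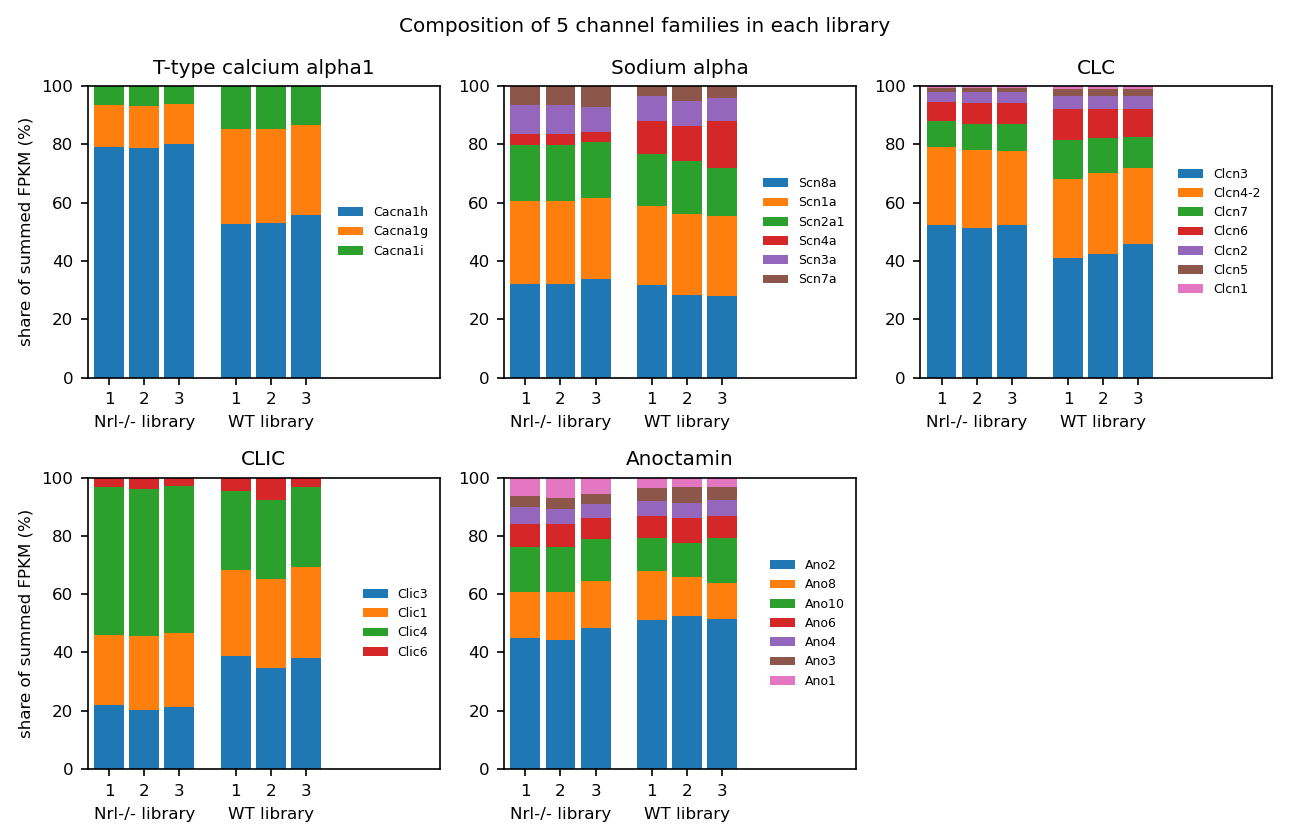
Share of each gene in the summed FPKM of its family, in percent, for each of the 3 *Nrl-/-* and 3 WT libraries, in 5 families. Shares within a library do not change when the library is scaled by a common factor, and they are given without a test. *Cacna1h* takes 79.2% of the T-type sum in *Nrl-/-* and 53.9% in WT retina on average, *Clic4* 50.4% and 27.3% of the CLIC sum, and *Scn4a* 3.63% and 13.3% of the sodium alpha sum.

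Among the chloride transporters the CLC family had the largest summed FPKM, 155 ± 2.91 in *Nrl-/-* and 114 ± 3.42 in WT retina (SD, n = 3 each), and *Clcn3* made up most of the difference. CLC-3 is a chloride-proton exchanger of endosomes and synaptic vesicles, and mice without it lose their photoreceptors. The gene is on chromosome 8 (minus strand, 63389186 to 63462097, NCBIM37). Its main transcript, NM_173876, had an FPKM of 52.4, 50.6 and 49.2 in *Nrl-/-* libraries and 23.4, 29.5 and 34.0 in WT libraries (log2 fold change 0.80, standard error 0.11, limma adjusted p = 0.00058). The other transcripts rose too, NM_007711 by 0.55, NM_173874 by 0.48 and NM_173873 by 0.45 on the log2 scale, with adjusted p-values of 0.00073, 0.0028 and 0.0011. In none of the 4 did *Nrl-/-* and WT libraries overlap. The share of NM_173876 in the summed FPKM of the gene was 63.1% ± 0.830 in *Nrl-/-* and 58.7% ± 6.65 in WT retina and overlapped, with 51.0% in WT replicate 1.

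*Clcn4-2*, an endosomal exchanger closely related to *Clcn3*, also rose, with an FPKM of 42.1, 41.2 and 38.7 in *Nrl-/-* and 30.3, 31.2 and 31.0 in WT libraries (log2 fold change 0.39, standard error 0.05, limma adjusted p = 0.00053). The other CLC genes were not called with the deposited scaling. *Clcn7*, the exchanger of lysosomes, had an FPKM of 14.2 ± 0.218 in *Nrl-/-* and 13.6 ± 1.26 in WT retina, *Clcn6*, of late endosomes, 10.8 ± 0.377 and 11.5 ± 0.398, and *Clcn2*, a plasma membrane channel, 5.53 ± 0.173 and 5.18 ± 0.238. The X-linked *Clcn5* had 2.05, 2.23 and 2.16 in *Nrl-/-* and 2.56, 2.56 and 2.76 in WT libraries, without overlap (log2 fold change -0.20, adjusted p = 0.054), and WT replicate 2, the library with abundant *Xist*, did not differ from WT replicate 1.

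The CLIC proteins, which exist in soluble and membrane forms, moved apart. *Clic4* (NM_013885) (chromosome 4, minus strand, 134769884 to 134828729, NCBIM37) had an FPKM of 13.6, 12.8 and 13.1 in *Nrl-/-* and 5.11, 6.36 and 5.50 in WT libraries (log2 fold change 1.10, standard error 0.08, limma adjusted p = 6.3e-06). *Clic3* fell to 5.92, 5.19 and 5.59 in *Nrl-/-* libraries, against 7.28, 8.13 and 7.63 in WT libraries (log2 fold change -0.40, standard error 0.07, adjusted p = 0.0019). Neither gene overlapped between genotypes. *Clic4* made up 50.4% ± 0.159 of the CLIC sum in *Nrl-/-* and 27.3% ± 0.241 in WT retina, and *Clic3* 21.2% ± 0.820 and 37.2% ± 2.14. By BWA, *Clic4* thus led in *Nrl-/-* and *Clic3* in WT retina. In the authors' TopHat alignments of the same libraries *Clic1* led in WT retina, with a pooled FPKM of 8.77, against 5.69 for *Clic4* and 5.35 for *Clic3*. *Clic4* led in *Nrl-/-* retina there too, with 12.9. By BWA, *Clic1* had 6.53 ± 0.0799 in *Nrl-/-* and 6.30 ± 0.766 in WT retina. *Clic6* had 0.892, 1.03 and 0.778 in *Nrl-/-* and 0.892, 1.81 and 0.636 in WT libraries. WT replicates 2 and 3 held its highest and lowest values. Of 11 pigment epithelium markers 8 were measured and 0 were called, with a summed FPKM of 26.8 to 57.4 in *Nrl-/-* and 9.33 to 59.0 in WT libraries. The lowest value of 7 of the 8 was in WT replicate 3, while the highest was in *Nrl-/-* replicate 2 for 5 and in WT replicate 2 for 3. The part of pigment epithelium in the *Clic6* values was not tested.

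Anoctamins include calcium-activated chloride channels and lipid scramblases. *Ano2*, the channel of photoreceptor terminals and the highest of the family, had an FPKM of 17.5, 16.7 and 18.4 in *Nrl-/-* and 18.3, 18.0 and 17.1 in WT libraries, which overlap (log2 fold change -0.02, standard error 0.06). *Ano1*, the calcium-activated chloride channel of epithelia and smooth muscle, is on chromosome 7 (minus strand, 151774454 to 151937879, NCBIM37). It had 2.41, 2.61 and 2.10 in *Nrl-/-* and 1.27, 1.07 and 1.07 in WT libraries (log2 fold change 0.66, standard error 0.09, limma adjusted p = 0.00048), or 2.09 times the FPKM. *Ano1* thus rose while the far more abundant *Ano2* was not called. *Ano10* had 5.96, 5.82 and 5.41 in *Nrl-/-* and 4.03, 4.03 and 5.11 in WT libraries (log2 fold change 0.33, standard error 0.09, adjusted p = 0.019), a call lost without *Nrl-/-* replicate 1 (adjusted p = 0.075), *Nrl-/-* replicate 2 (0.064), WT replicate 1 (0.054) or WT replicate 2 (0.063). *Ano8* had 6.19 ± 0.0760 in *Nrl-/-* and 4.93 ± 0.920 in WT retina, where WT replicate 1 was near the *Nrl-/-* level, and it was called when that library was left out (adjusted p = 0.0025, against 0.052 with it). *Ano3*, *Ano4* and the scramblase gene *Ano6* were not called, with log2 fold changes of -0.12, 0.09 and 0.09.

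**Figure D3:**
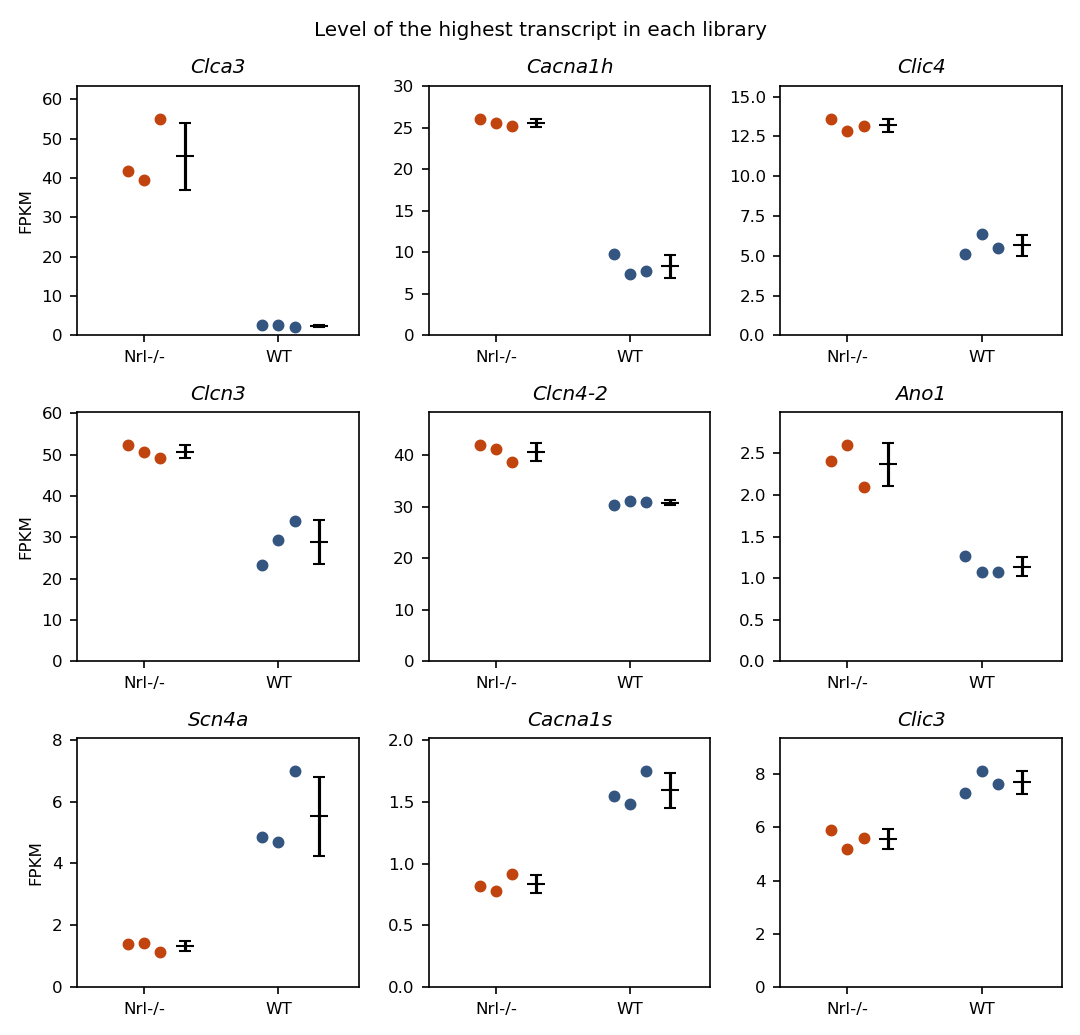
FPKM of the highest transcript of 9 channel genes in the 3 *Nrl-/-* and 3 WT libraries, with the mean and SD beside the points of each genotype. These genes were called in every alternative in which they were tested, and *Cacna1s* among them entered the table through the WT libraries alone. *Clca3* lies at 39.5 to 55.1 in *Nrl-/-* and 2.05 to 2.56 in WT libraries, and *Scn4a* at 1.14 to 1.45 in *Nrl-/-* and 4.70 to 7.0 in WT libraries.

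Genes whose products bind or regulate these channels were called in 12 of 31 cases, 9 higher and 3 lower, of 41 listed, where 28.3% of all genes were higher and 10.2% lower. Among calcium channel partners, the calcium-binding protein gene *Cabp5* rose to 162 ± 5.75 in *Nrl-/-* retina, against 38.1 ± 3.52 in WT (log2 fold change 2.06), and *Gem*, a small GTPase that inhibits calcium channels, to 28.7 ± 2.43 against 9.65 ± 0.886 (1.48). *Cabp4*, which binds the calcium channel of photoreceptor terminals, fell to 43.8 ± 4.02 in *Nrl-/-*, against 69.5 ± 7.39 in WT retina (-0.65). *Cabp5* is also a bipolar cell marker. Of the other 8 bipolar markers 4 rose and 1 fell, with a summed FPKM of 353 to 399 in *Nrl-/-* and 301 to 356 in WT libraries, which overlap. The part of bipolar cells in the change of *Cabp5* was not tested.

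Of 3 HCN partners 1 rose, 1 fell and 1 was not called. *Kcne2*, a single-span subunit of potassium channels that also associates with HCN channels, had 199.9, 197 and 146 in *Nrl-/-* and 29.7, 31.9 and 25.7 in WT libraries (log2 fold change 2.59, limma adjusted p = 4.9e-07). *Pex5l*, which encodes the trafficking subunit TRIP8b, fell to 39.0 ± 1.71 in *Nrl-/-*, against 57.4 ± 2.45 in WT retina (log2 fold change -0.55, adjusted p = 9.3e-05). *Kctd3*, whose product binds HCN channels, had 18.3 ± 0.335 in *Nrl-/-* and 16.5 ± 0.592 in WT retina (log2 fold change 0.14, adjusted p = 0.071).

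Of the sodium channel partners, *Unc79* (log2 fold change 0.63) and *Unc80* (0.53), which encode the large subunits of the NALCN sodium leak channel complex, both rose, while the pore gene *Nalcn* had 8.93 ± 0.501 in *Nrl-/-* and 7.89 ± 0.591 in WT retina and was not called (0.16, adjusted p = 0.11). The 4 fibroblast growth factor homologous genes *Fgf11* to *Fgf14* were not called, with log2 fold changes of -0.08 to 0.06. Of other chloride channel genes, *Ttyh2* rose (log2 fold change 1.56, 38.3 ± 3.32 in *Nrl-/-* and 12.3 ± 1.23 in WT retina). Subunits of the volume-regulated anion channel moved apart, with *Lrrc8c* (0.62) and *Lrrc8b* (0.42) higher, *Lrrc8d* (-0.61) lower and the obligatory subunit *Lrrc8a* at 11.6 ± 0.918 in *Nrl-/-* and 11.7 ± 1.36 in WT retina. *Ttyh1* (0.24, adjusted p = 0.047) was called in 7 of 17 alternatives only.

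TopHat alignments of the same 6 libraries, deposited as 1 pooled FPKM per genotype with no replicates, gave 48 of the 53 genes. All 14 genes called above and present there lay on the same side, which is no independent evidence since the reads are the same. The authors' pooled FPKM of *Clca3* was 53.3 in *Nrl-/-* and 2.91 in WT retina, of *Clic4* 12.9 and 5.69, of *Scn4a* 1.38 and 5.83 and of *Ano1* 2.71 and 1.37. Summed over its transcripts, *Clcn3* had 102 and 63.1. Among genes not called, *Cacna1b* had a summed FPKM of 8.15 in *Nrl-/-* and 5.48 in WT retina by TopHat, with 5 transcripts, but 2.88 and 3.18 by BWA, with 2, and *Clcn1* had 2.05 and 3.71 by TopHat and 1.116 and 1.277 by BWA. *Cacna1h* was not compared.

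**Figure D4:**
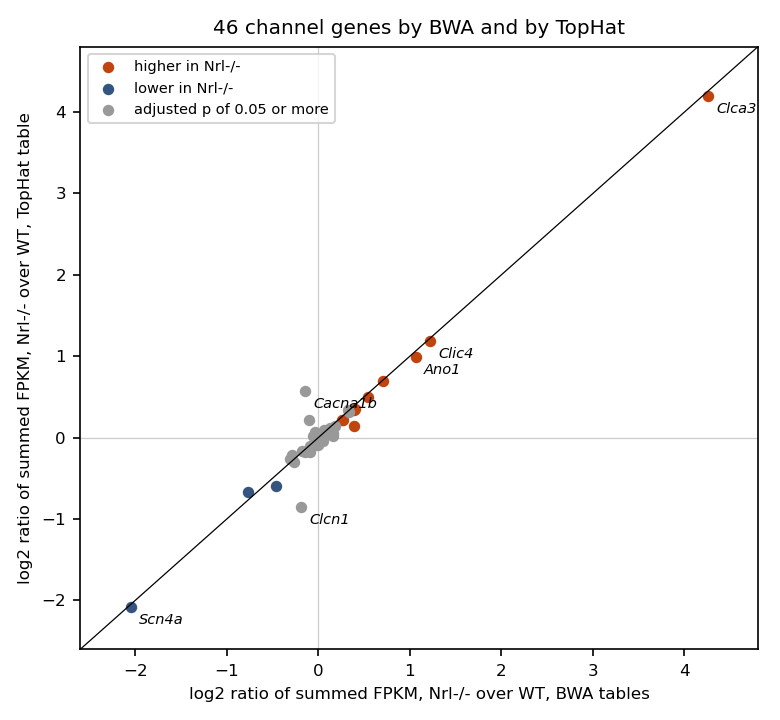
Log2 ratio of the summed FPKM of each gene, *Nrl-/-* over WT, in the BWA tables (x axis, mean of 3 libraries each) and the TopHat table (y axis, 1 pooled value per genotype), for 46 genes, with the line of equal ratios. The genes called higher or lower follow the line, from *Scn4a* at the lower end to *Clca3* at the upper end, and *Cacna1b* and *Clcn1* lie off it.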

How the data were processed

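Whole-retina RNA of 3 *Nrl-/-* and 3 WT mice was sequenced as 70-nucleotide single reads. The authors aligned reads to mm9 with BWA, estimated FPKM per refFlat transcript in Partek, and deposited log2(FPKM + 1), rounded, for transcripts reaching an FPKM of 1 in any library. A second deposited table holds FPKM from TopHat and Cufflinks, pooled per genotype. Columns of the authors' own comparisons were not used. The tables give no counts, so the depth behind a value is unknown; summed FPKM of mRNA transcripts was 194769 to 201117 per library.

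A linear model of genotype was fitted to all 15142 mRNA transcripts with limma 3.58.1 (R 4.3.3, variance trend), with Benjamini-Hochberg adjustment over all. The fit was tested on simulated data. Every member gene is named except 2, which enter the counts but are not reported here. Values per library are given for members called with at least 1.5-fold change and FPKM of at least 1, for the highest transcript of each family, and for other called members and their neighbors. *Cacna1c* was named after its values were seen. The members and lists were chosen with earlier results of these data known. Alternatives were other pseudocounts, filters, scalings and variance models, FPKM summed per gene, a replicate block and leaving out each library. Residuals of same-numbered libraries had correlations of 0.0286, 0.0237 and 0.124, and those of differently numbered libraries -0.0895 to 0.0729. The labels give no pairing, and the main fit did not take the numbers as pairs. Positions come from GENCODE on NCBIM37 (52 of 53 genes) and promoters from RefSeq on GRCm38.p6 (40 genes). Plots used Python 3.11.15 and matplotlib 3.10.9.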

Additional observations from a re-analysis of the deposited data

Results flagged for a closer look

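*Cacna1c*, the pore of the L-type channel of heart and smooth muscle, was measured only in the TopHat table, which holds no replicates and entered no test. Its pooled FPKM was 1.37 in *Nrl-/-* and 1.26 in WT retina, with no replicates behind either value.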

How the results depend on the processing

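The count of 15 higher member transcripts was 11 to 16 under all alternatives. The count of 5 lower ones was 12 with median-of-ratios scaling, 12 with upper-quartile scaling and 11 with quantile normalization. When only transcripts with an FPKM of at least 5 were kept, 36 of the 77 were tested, with 13 higher and 3 lower. With that filter 36.1% of members were higher, against 34.8% of all transcripts, and 8.33% were lower, against 12.2%. Leaving out 1 library gave 11 to 15 higher and 4 to 5 lower members and 11 to 14 called partner genes, against 12. FPKM summed per gene gave 12 higher and 5 lower genes. With the replicate block, 16 members were higher and 5 lower, 13 partner genes were called, *Cacnb1* was lost, and *Ano8* and *Hcn3* were added. Members called under every alternative in which they were tested included both transcripts of *Cacna1h*, all 4 of *Clcn3*, NM_001081023 of *Cacna1s*, which passed the minimum of the table through the WT libraries alone, and *Clca3*, *Clic4*, *Clcn4-2*, *Ano1*, *Scn4a* and *Clic3*. Of 1266 fold changes of member transcripts recomputed under 17 alternatives, 42 lost and 29 gained a call, 0 reversed with a call, and 84, none past a size of 0.12 on the log2 scale, changed sign without one. The cause of these differences was not tested. The tables used here give no counts, so how far depth limits the values near an FPKM of 1, as for *Cacna1s*, *Clic6* and *Cacng8*, is unknown.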
